A study of Mus musculus with 6 samples.

Results

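The 10 genes described here encode the enzymes that build fatty acids from acetyl-CoA and then elongate and desaturate them: Acly, Acss2, Acaca, Fasn, Scd1, Scd2, Fads1, Fads2, Elovl5 and Elovl6. They were chosen by name, with earlier results of these data known. Found by Ensembl identifier, they are 10 of the 55536 genes listed in each of 6 RNA sequencing libraries. The libraries came from SVEC4-10, an immortalised mouse line labelled as endothelial and grown in serum-containing medium. Cells treated for 24 hours with nattokinase, a protease of Bacillus subtilis that degrades fibrin, gave 3 of the libraries, and untreated control cells gave the other 3. The sources used here state no dose, and all samples are of 1 cell line. The labels do not tie the replicates to independent cultures, and the p-values rest on sample-to-sample spread that could be technical alone.

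Fatty acid synthesis starts in the cytosol, where citrate exported from mitochondria is split by ATP citrate lyase to acetyl-CoA, and where acetate is activated to the same product by acetyl-CoA synthetase. Acetyl-CoA carboxylase makes malonyl-CoA, fatty acid synthase condenses the units into palmitate, and elongases and desaturases of the endoplasmic reticulum lengthen the chain and add double bonds. Many of these genes are known targets of the SREBP transcription factors, which are released from the endoplasmic reticulum when membrane sterols are low, and Srebf1 and several lipogenic genes are also known targets of the oxysterol receptors LXR.

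Levels were read as FPKM, with reads scaled by exon length and by the total assigned in a library, so that genes as well as libraries can be compared. Between 17525090 and 18341370 reads lay behind the nattokinase libraries and between 15044778 and 16496433 behind the controls. The libraries also differed in composition, with 98.3% to 98.4% of reads on protein-coding genes in the nattokinase libraries and 95.4% to 96.7% in the controls. A single gene, CT010467.1, took 0.525% to 0.610% of reads in the nattokinase libraries and 1.85% to 2.89% in the controls. The label did not match the defining markers, since 0 of 12 endothelial genes, among them Pecam1 and Cdh5, passed the filter on low values, whereas 6 of 8 fibroblast and mural genes did. The fibroblast and mural genes summed to between 1849 and 1920 FPKM in the nattokinase libraries and between 2067 and 2215 FPKM in the controls. Collagen genes made up most of that sum, so it does not describe these markers as a class. Mean FPKM, nattokinase then control, was 1236 and 1403 for Col1a1, 511 and 524 for Col1a2, and 95.8 and 144 for Col3a1. Means were higher with nattokinase for Pdgfra (8.32 and 7.45), Pdgfrb (19.43 and 16.99) and Dcn (22.10 ± 0.56 and 21.65 ± 0.96). Lum and Thy1 did not pass the filter. The adipocyte genes Plin1 and Cidec had 0 reads in all 6 libraries, and the 8 adipocyte markers summed to between 25.5 and 26.5 FPKM with nattokinase and between 25.8 and 28.0 FPKM in the controls. Adipor2, at 22.7 ± 0.64 FPKM with nattokinase and 23.1 ± 0.74 in the controls, made up most of that sum. Apart from Adipor2 only Pparg of these 8 passed the filter (2.62 ± 0.32 and 2.91 ± 0.41 FPKM). The 8 leukocyte markers summed to between 2.36 and 2.80 FPKM with nattokinase and between 1.26 and 1.604 FPKM in the controls, with Cd68 alone past the filter (2.42 ± 0.35 FPKM with nattokinase and 1.19 ± 0.33 in the controls) and Ptprc, Cd3e, Itgam and Adgre1 at 0 reads in every library. The 6 epithelial markers summed to between 4.54 and 5.63 FPKM with nattokinase and between 4.51 and 4.92 FPKM in the controls. Control replicate 1 stood apart from the other controls on the second principal component, which held 20.3% of the variance, and without it 8 of the 10 genes described below fell. The part of these differences in the results was not tested, except that the library totals were also rescaled, as given below. In bulk RNA, fewer cells of a type and less RNA per cell cannot be told apart.

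Promoter windows of the genes were searched for short motifs. Whether these motifs bear on the changes given below was not tested. RefSeq start-site windows (GRCm38.p6, 250 bases before to 50 after the annotated start) were found for 7 of the 10 genes, and Scd1, Scd2 and Fads1 had no entry. The Acaca entry is at a start far inside the gene, and the entries of Acss2, Fads2 and Elovl6 are at starts a short way inside theirs. The windows were searched on both strands for the sterol regulatory element TCACNCCAC, the E-box CACGTG, the CCAAT box (CCAAT, bound by NF-Y) and the GC box (GGGCGG, bound by Sp1). Printed below, 5′ to 3′ on the gene's strand with matches in capitals, are the window with the most CCAAT matches (Fasn, chr11:120824498-120824797, minus strand), the window with the most GC boxes (Acss2, chr2:155517793-155518092, plus strand) and the window with an E-box (Elovl5, chr9:77917115-77917414, plus strand).
Fasn: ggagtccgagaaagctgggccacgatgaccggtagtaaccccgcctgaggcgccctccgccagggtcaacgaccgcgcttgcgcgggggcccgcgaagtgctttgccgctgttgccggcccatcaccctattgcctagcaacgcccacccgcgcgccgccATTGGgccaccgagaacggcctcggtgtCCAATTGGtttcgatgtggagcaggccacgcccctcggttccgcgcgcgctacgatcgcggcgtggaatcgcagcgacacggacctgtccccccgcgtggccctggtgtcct
Acss2: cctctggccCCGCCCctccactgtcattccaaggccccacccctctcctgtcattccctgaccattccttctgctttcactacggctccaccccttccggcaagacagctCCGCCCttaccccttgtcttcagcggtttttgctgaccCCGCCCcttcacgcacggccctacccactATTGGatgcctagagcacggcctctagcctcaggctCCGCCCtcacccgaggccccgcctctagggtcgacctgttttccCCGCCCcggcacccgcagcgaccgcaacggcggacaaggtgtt
Elovl5: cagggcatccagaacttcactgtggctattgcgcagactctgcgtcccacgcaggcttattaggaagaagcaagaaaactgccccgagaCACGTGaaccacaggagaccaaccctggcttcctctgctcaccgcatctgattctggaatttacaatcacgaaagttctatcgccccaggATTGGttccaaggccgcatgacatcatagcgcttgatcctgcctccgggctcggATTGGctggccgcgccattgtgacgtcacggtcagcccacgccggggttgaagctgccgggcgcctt

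The string TCACNCCAC, searched as the sterol element, was matched in 0 of the 7 windows and in 1.24% of all 32851 windows of the same length. Only exact matches were sought, and at so low a share 0 of 7 does not show that the windows lack sterol elements. CCAAT was matched in 4 of the 7 windows, those of Fasn, Elovl5, Acss2 and Acly, and in 37.4% of all windows. The 3 matches in Fasn began 90, 62 and 59 bases before the start, the last pair overlapping each other on opposite strands. GGGCGG was matched in 3 of the 7, those of Acss2, Acly and Fads2, and in 35.7% of all windows. Acss2 held 5 of them and Acly 4. CACGTG, which is its own reverse complement, was matched in 1 of the 7, that of Elovl5, and in 7.15% of all windows. The windows of Acaca and Elovl6 held 0 matches to any of the 4 motifs, which says only that these letters are not in those 300 bases.

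All 10 genes had lower mean levels in nattokinase-treated cells, and 9 of the 10 fell past the threshold, a Benjamini-Hochberg adjusted p of 0.05 in limma over 10913 tested genes. Over all tested genes 3.24% were called lower, 5.61% higher and 8.85% in either direction, that is 354 lower and 612 higher, against 497 and 478 when FPKM were set to the same sum over protein-coding genes in every library. Among the 9 the mean FPKM fell by 16.2% for Acly, the least, and by 34.1% for Scd1, the most. The 10th gene, Elovl5, did not pass. In every one of the 10 the highest nattokinase library lay below the lowest control library, a pattern that 11.4% of all tested genes showed in this direction. The median log2 fold change of the 10 was -0.32, beside 0.01 over all tested genes. The 10 genes and the lists below were chosen with earlier results of these data known. How far that choice shaped these contrasts was not tested. Together the 10 genes took 0.309% ± 0.013 of assigned reads with nattokinase and 0.407% ± 0.0051 in the controls (SD, n = 3 each), and their FPKM summed to 588 ± 23.0 with nattokinase and 779 ± 7.66 in the controls. With no filter on low values, 24549 genes were tested in limma, of which 109 were called lower and 221 higher. In that fit 4 of the 10 passed. The limma adjusted p were 0.088 for Acss2, 0.18 for Acaca, 0.095 for Fasn, 0.052 for Scd1 and 0.053 for Elovl6.

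**Figure D1:**
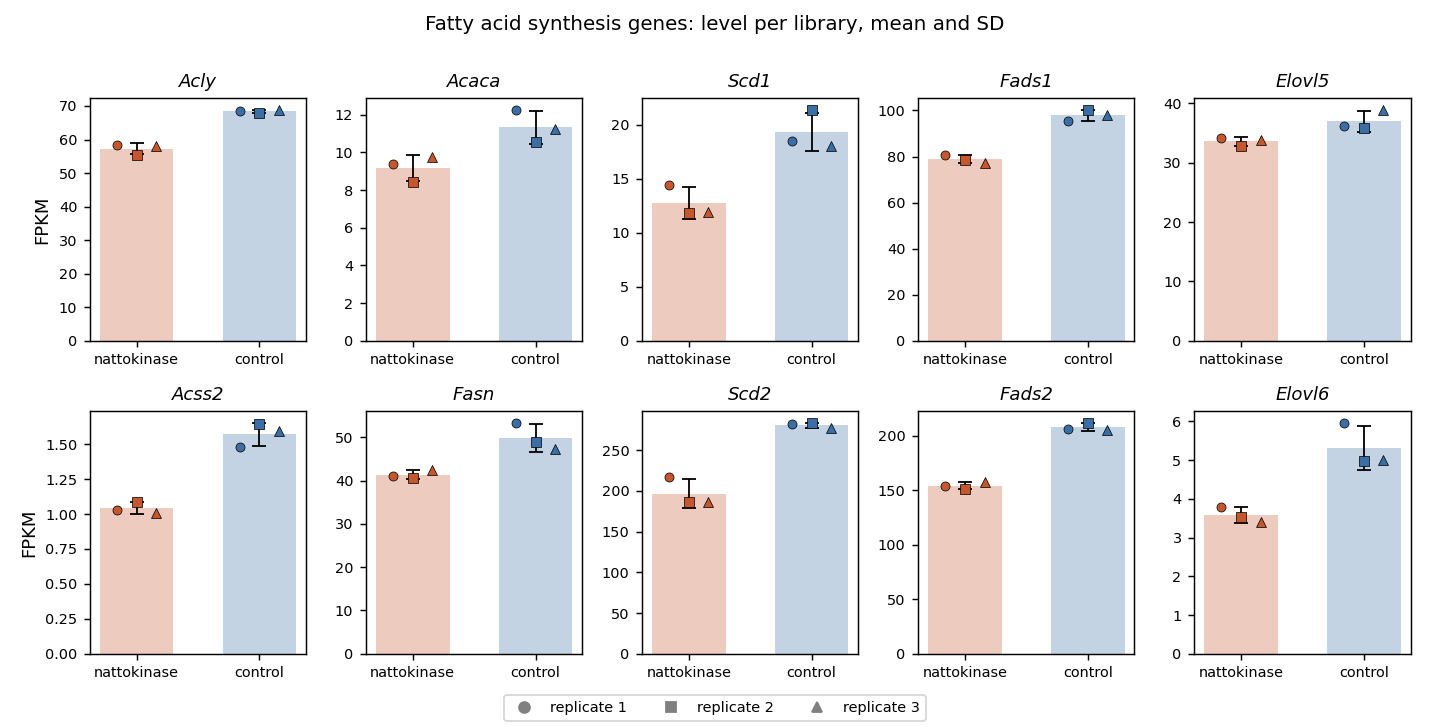
Level of each of the 10 genes in FPKM in nattokinase and control libraries; bars are group means, error bars SD (n = 3), and points are libraries with the marker giving the replicate number. In all 10 panels the 3 nattokinase points lie below the 3 control points, with the smallest relative difference of means for Elovl5.

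The stearoyl-CoA desaturases place the first double bond in palmitate and stearate. Their transcripts fell by 0.57 (Scd1) and 0.52 (Scd2) on the log2(FPKM + 1) scale, the lowest values of the 10 on that scale. The order rests on the added 1 FPKM, which shrinks the change of low genes: limma-voom on the recovered reads gave -0.60 for Scd1, -0.59 for Acss2, -0.57 for Elovl6 and -0.52 for Scd2, and by ratio of mean FPKM Acss2 (0.664) and Elovl6 (0.674) were also below Scd2. Scd1 had 14.4, 11.9 and 11.9 FPKM in the nattokinase libraries, against 18.6, 21.4 and 18.1 FPKM in the controls. Its fold was 0.659 and its log2 fold change -0.57 (SE 0.085, limma adjusted p = 0.0037), which ranked 68 from the lowest of the 10913 genes. Scd2, a second mouse isoform known to be abundant in brain, had 217, 186 and 186 FPKM with nattokinase, against 282, 283 and 277 FPKM in the controls (fold 0.700, log2 fold change -0.52, SE 0.064, limma adjusted p = 0.0011). With both genes the first nattokinase replicate was the highest of its group, and it remained below every control. Scd2 was the most abundant of the 10, ranking 143 in mean FPKM among tested genes, and its level was 15.4 ± 0.34 times that of Scd1 with nattokinase and 14.6 ± 1.18 times in the controls (SD, n = 3 each).

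Both genes lie on chromosome 19 (GRCm38), Scd2 at 44293674 to 44306864 on the plus strand and Scd1 at 44394455 to 44407879 on the minus strand, with 87590 bases between them. Of the 50-base words in the annotated Scd1 transcripts 4.56% also occurred in other genes, mostly Scd2. Scd2 was at 15.4 times the level of Scd1 with nattokinase and 14.6 times in the controls. The sources used here do not state how reads matching both genes were counted. How far such reads enter the level of Scd1 was not tested. The further mouse paralogs were nearly silent, with at most 6 reads for Scd3 and 18 for Scd4 in any library. These paralogs were named after their values were seen.

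The front-end desaturases introduce further double bonds into linoleic and alpha-linolenic acid on the way to arachidonic, eicosapentaenoic and docosahexaenoic acid. Their transcripts also fell. Fads2, the first enzyme of that path, had 154, 151 and 157 FPKM with nattokinase, against 206, 212 and 205 FPKM in the controls. It had the smallest adjusted p of the 10, at a fold of 0.742 and a log2 fold change of -0.43 (SE 0.045, limma adjusted p = 0.00043). Fads1, which acts after an elongation step, had 80.5, 78.6 and 77.1 FPKM with nattokinase, against 95.3, 100.2 and 98.1 FPKM in the controls (fold 0.805, log2 fold change -0.31, SE 0.044, limma adjusted p = 0.0022). Replicates of these genes were tight, with a coefficient of variation between 1.77% and 2.49% in either group, against counting errors of 0.999% and 1.18%. Fads2 and Fads1 lie 81141 bases apart on chromosome 19 (10062765 to 10101746, minus strand, and 10182888 to 10196877, plus strand). Fads3, the next gene of the same cluster and a desaturase with a less settled role, had 36.6 ± 1.27 FPKM with nattokinase and 37.3 ± 2.11 in the controls (log2 fold change -0.03, 95% interval -0.14 to 0.09, limma adjusted p = 0.83). It was singled out for its position after its value was seen.

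Of the 2 elongase genes, Elovl6 fell and Elovl5 did not pass. Elovl6, which extends palmitate to stearate, had 3.80, 3.54 and 3.41 FPKM with nattokinase, against 5.97, 4.97 and 5.01 FPKM in the controls (fold 0.674, log2 fold change -0.46, SE 0.075, limma adjusted p = 0.0046). Control replicate 1 was the highest of the controls, and the other two controls still exceeded every nattokinase library by at least 1.17 FPKM. Elovl5, which extends polyunsaturated chains, had 34.1, 32.8 and 33.9 FPKM with nattokinase, against 36.1, 35.8 and 38.9 FPKM in the controls. The groups did not overlap, but the log2 fold change of -0.13 (SE 0.048, 95% interval -0.24 to -0.03 before adjustment) had a limma adjusted p of 0.13. With equal sums over protein-coding genes, Elovl5 had a log2 fold change of -0.17 and an adjusted p of 0.04996 in limma, just past the threshold, and the count was 10 of 10. Elovl5 lies on chromosome 9 (77917364 to 77984519) and Elovl6 on chromosome 3 (129532355 to 129638495).

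**Figure D2:**
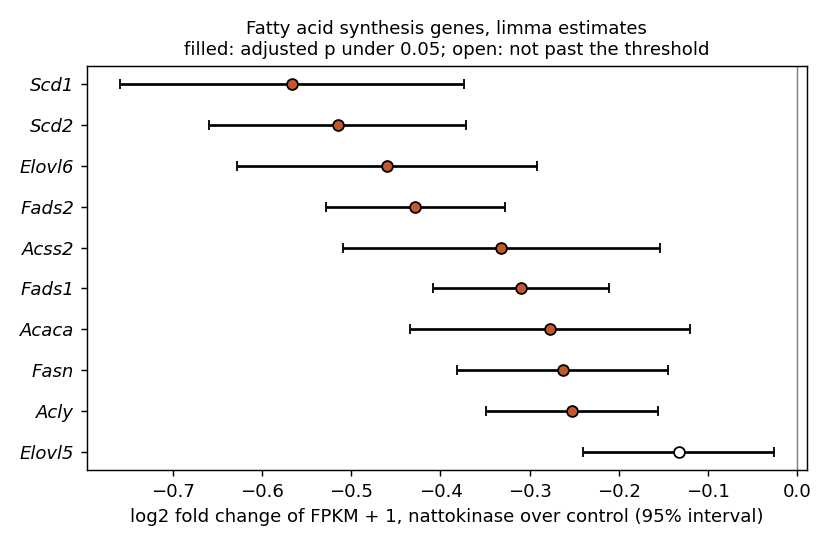
Log2 fold change of FPKM + 1, nattokinase over control, for each of the 10 genes with its 95% interval from limma, ordered from the lowest. On this scale Scd1 is lowest at -0.57 and Elovl5, the open symbol, is nearest 0 at -0.13.

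The transcripts of both enzymes that build the carbon chain itself fell. Acaca, which encodes acetyl-CoA carboxylase alpha, the committed step of synthesis, had 9.39, 8.42 and 9.73 FPKM with nattokinase, against 12.3, 10.5 and 11.2 FPKM in the controls (fold 0.810, log2 fold change -0.28, SE 0.070, limma adjusted p = 0.037). The groups were 0.801 FPKM apart at their nearest libraries. Leaving out 1 library ended the call of Acaca in 5 of 6 cases, all but control replicate 2, with limma adjusted p up to 0.14, and so did limma without trend and robust prior (adjusted p = 0.069). Of the 50-base words of Acaca transcripts 30.4% also occurred elsewhere, mostly in the processed pseudogene Gm5182, which was assigned 21 to 25 reads in any library, against 2518 to 3393 for Acaca. The sources used here do not state how reads with several matches were counted. Fasn, the multifunctional synthase, had 41.1, 40.5 and 42.5 FPKM with nattokinase, against 53.4, 49.0 and 47.3 FPKM in the controls (fold 0.829, log2 fold change -0.26, SE 0.053, limma adjusted p = 0.014). Its call was lost without nattokinase replicate 2, at a limma adjusted p of 0.060. Acaca lies on chromosome 11 (84129672 to 84401651), as do Fasn (120805846 to 120824547) and Acly (100476353 to 100528000).

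The transcripts of the suppliers of cytosolic acetyl-CoA were at very different levels, and both fell. Acly had 58.5, 55.3 and 58.1 FPKM with nattokinase, against 68.4, 67.9 and 68.9 FPKM in the controls (fold 0.838, log2 fold change -0.25, SE 0.043, limma adjusted p = 0.0059). Its controls were the most alike of any of the 10 genes, with a coefficient of variation of 0.677%. Acss2 (chromosome 2, 155517948 to 155585724) had only 1.03, 1.09 and 1.01 FPKM with nattokinase, against 1.48, 1.64 and 1.59 FPKM in the controls. These are 188 to 267 reads per library, a counting error of 6.71%, and the level ranked 10371 of 10913. Its log2 fold change of -0.33 (SE 0.079, limma adjusted p = 0.030) is understated by the added 1 FPKM, and limma-voom on the recovered reads gave -0.59 (adjusted p = 0.00036). Leaving out 1 library ended the call of Acss2 in 5 of 6 cases, all but control replicate 1, with limma adjusted p up to 0.10. Exons of Acss2 overlap 395 bases of Gss, 197 of Ggt7 and 335 of the antisense gene Acss2os, all on the opposite strand, and without stated strand use such reads cannot be told apart. Acss2os itself was assigned 0 reads.

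By level, the 10 genes ran with nattokinase from Scd2 at 197 ± 17.9, Fads2 at 154 ± 3.07 and Fads1 at 78.8 ± 1.69 FPKM, through Acly at 57.3 ± 1.75, Fasn at 41.4 ± 1.01, Elovl5 at 33.6 ± 0.72 and Scd1 at 12.8 ± 1.46, to Acaca at 9.18 ± 0.68, Elovl6 at 3.58 ± 0.20 and Acss2 at 1.04 ± 0.042 FPKM (SD, n = 3). In the controls they were at 281 ± 3.29 FPKM for Scd2, 208 ± 3.69 for Fads2, 97.9 ± 2.44 for Fads1, 68.4 ± 0.46 for Acly, 49.9 ± 3.17 for Fasn, 36.9 ± 1.71 for Elovl5, 19.4 ± 1.80 for Scd1, 11.3 ± 0.87 for Acaca, 5.32 ± 0.56 for Elovl6 and 1.57 ± 0.082 for Acss2. The order was the same in both groups, and no neighbouring pair overlapped between its libraries within either group. Summed by role, the stearoyl-CoA desaturases had 209 ± 19.4 FPKM with nattokinase and 300.04 ± 4.76 in the controls, and the front-end desaturases had 233 ± 2.61 against 306 ± 5.74. Within the nattokinase group, replicate 1 was the highest library for 6 of the 10 genes and replicate 2 the lowest for 7. Within the controls no replicate was the highest for more than 5.

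Ratios between the members of each pair, which do not depend on how a library is scaled, were compared for 5 pairs with a two-sided exact permutation test over samples. With 3 libraries against 3 that test cannot give a p below 0.1, so none could pass. Elovl6 over Elovl5 was 0.107 ± 0.0055 with nattokinase and 0.144 ± 0.019 in the controls (SD, n = 3 each), a difference of -0.43 on the log2 scale with groups that did not overlap (exact p = 0.1, adjusted p = 0.17). Fads2 over Fads1 was 1.96 ± 0.071 with nattokinase and 2.12 ± 0.036 in the controls (log2 difference -0.12, exact p = 0.1, adjusted p = 0.17), again without overlap. Acly over Acss2 was 55.0 ± 3.73 with nattokinase and 43.6 ± 2.44 in the controls, a log2 difference of 0.33 (exact p = 0.1, adjusted p = 0.17), and this difference shrank to 0.08 with 1 FPKM added to both levels. Scd2 over Scd1 (log2 difference 0.09, exact p = 0.3, adjusted p = 0.38) and Fasn over Acaca (log2 difference 0.04, exact p = 0.5, adjusted p = 0.50) overlapped between the groups.

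**Figure D3:**
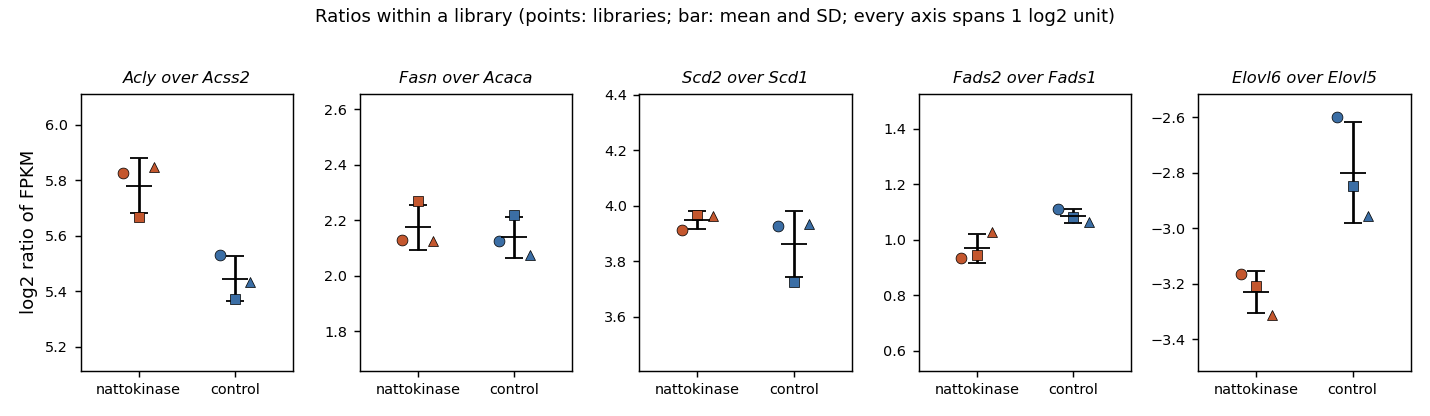
Log2 ratio of FPKM within each library for 5 pairs of genes, nattokinase beside control, with libraries as points (circle, square and triangle for replicates 1, 2 and 3), means and SD (n = 3); every axis spans 1 log2 unit. The groups separate for Acly over Acss2, Fads2 over Fads1 and Elovl6 over Elovl5 and overlap for the other two.

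Other enzymes of synthesis, elongation and desaturation gave few calls. Of 26 such genes 17 passed the filter on low values, of which 1 fell and 1 rose in limma, with a median log2 fold change of 0.00. Over all tested genes 3.24% were called lower and 5.61% higher. Aacs, which activates acetoacetate for lipid synthesis, had 22.8 ± 1.50 FPKM with nattokinase and 29.3 ± 1.77 in the controls (log2 fold change -0.35, SE 0.061, limma adjusted p = 0.0065). Hacd1, a dehydratase of the elongation cycle, rose to 10.6 ± 0.56 FPKM with nattokinase, against 7.97 ± 0.77 in the controls (log2 fold change 0.37, SE 0.072, limma adjusted p = 0.011), a call lost without nattokinase replicate 3 (limma adjusted p = 0.053). The most abundant gene of the list, the cytochrome b reductase gene Cyb5r3 that supplies electrons to desaturases, had 119 ± 1.67 FPKM with nattokinase and 115 ± 3.07 in the controls (limma adjusted p = 0.59). Among the 9 genes below the filter were Acacb, the mitochondrial carboxylase isoform, with at most 91 reads, and Elovl2 with 0 reads in all libraries. Without control replicate 1 the number that fell was 2, with 481 lower over all tested genes. The number that rose was 2 without nattokinase replicate 1 and 0 without nattokinase replicate 3, with 444 and 342 higher over all tested genes. With no filter the limma adjusted p were 0.072 for Aacs and 0.095 for Hacd1.

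Transcripts for the supply of citrate, acetyl-CoA and NADPH changed in part. Of 13 tested genes of that list 3 fell and 1 rose in limma, beside 3.24% lower and 5.61% higher over all tested genes. Idh1, a cytosolic source of NADPH, fell to 19.2 ± 0.77 FPKM with nattokinase, against 28.1 ± 2.85 in the controls (log2 fold change -0.53, SE 0.068, limma adjusted p = 0.0014). Slc25a1, the mitochondrial citrate carrier that feeds Acly, had 30.4 ± 0.49 FPKM with nattokinase and 36.5 ± 1.62 in the controls (log2 fold change -0.26, limma adjusted p = 0.0084). The malic enzyme gene Me1 had a log2 fold change of -0.17 (limma adjusted p = 0.048), a call that ended in 5 of 6 cases when 1 library was left out, all but control replicate 1 (adjusted p up to 0.14). Mthfd1, of folate metabolism, rose to 53.9 ± 1.76 FPKM with nattokinase, against 44.3 ± 1.65 in the controls (log2 fold change 0.28, limma adjusted p = 0.0060). Citrate synthase, Cs, the most abundant of this list, had 88.5 ± 2.20 FPKM with nattokinase and 96.7 ± 3.25 in the controls (limma adjusted p = 0.13). Without control replicate 1 the number of genes of this list that fell was 5, with 481 lower over all tested genes. With no filter the limma adjusted p was 0.058 for Slc25a1 and 0.15 for Me1.

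**Figure D4:**
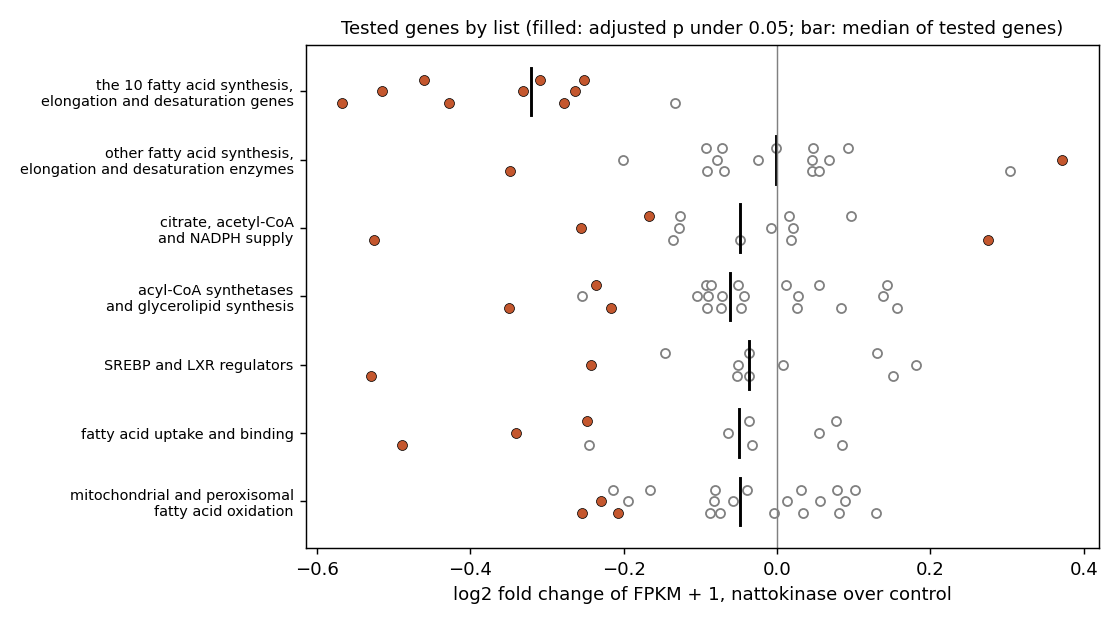
Log2 fold change of FPKM + 1, nattokinase over control, for the tested genes of each list, with the 10 fatty acid synthesis, elongation and desaturation genes at the top; filled points passed the limma threshold and bars are medians. The median of the 10 genes is -0.32, and the medians of the other lists lie between -0.06 and 0.00.

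Among regulators, Insig1 and Srebf2 fell and Srebf1 did not pass. Insig1, which retains the SREBP escort protein in the endoplasmic reticulum and is itself a known SREBP target, had 25.0, 20.7 and 19.8 FPKM with nattokinase, against 32.2, 30.5 and 32.8 FPKM in the controls (log2 fold change -0.53, SE 0.079, limma adjusted p = 0.0034). Srebf2, which encodes the SREBP mainly tied to sterol synthesis, had 45.5, 43.8 and 42.9 FPKM with nattokinase, against 52.4, 52.6 and 51.9 FPKM in the controls (log2 fold change -0.24, SE 0.043, limma adjusted p = 0.0069). Srebf1, whose product is mainly tied to fatty acid synthesis, had 13.5, 12.6 and 14.3 FPKM with nattokinase, against 14.6, 14.9 and 15.5 FPKM in the controls (log2 fold change -0.15, 95% interval -0.27 to -0.02 before adjustment, limma adjusted p = 0.15). The values do not separate the transcript forms of Srebf1. The LXR alpha gene Nr1h3 had at most 7 reads in any library and was not tested. The LXR beta gene Nr1h2 had 15.3 ± 0.44 FPKM with nattokinase and 15.9 ± 0.92 in the controls (log2 fold change -0.05, limma adjusted p = 0.62). The carbohydrate-responsive factor Mlxipl had at most 1 read. Of the 11 tested regulators 2 fell and 0 rose in limma, beside 3.24% lower and 5.61% higher over all tested genes. At an unadjusted limma p under 0.05 there were 3 lower and 3 higher. Limma-voom on the recovered reads called 2 lower and 1 higher. Over all 10913 tested genes, 2495 had an unadjusted limma p under 0.05 in either direction, and limma-voom called 462 lower and 872 higher. With no filter Insig1 had a limma adjusted p of 0.051. Mid1ip1, which encodes a protein that promotes polymerisation of acetyl-CoA carboxylase and was the most abundant of the list, had a mean of 54.5 FPKM with nattokinase and 56.0 FPKM in the controls (log2 fold change -0.04, SE 0.053, limma adjusted p = 0.74).

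Genes that use or import fatty acids gave a few calls each, all lower. Over all tested genes 3.24% were called lower and 5.61% higher. Of 22 tested genes for acyl-CoA synthetases and glycerolipid synthesis 3 fell and 0 rose in limma: Pcyt2, of phosphatidylethanolamine synthesis (log2 fold change -0.24, adjusted p = 0.029), Lpcat3, which puts polyunsaturated chains into phospholipids (-0.22, adjusted p = 0.034), and the phosphatidate phosphatase gene Lpin1 (-0.35, adjusted p = 0.046). Lpin1 averaged 0.844 ± 0.13 FPKM with nattokinase and 1.35 ± 0.13 in the controls, so that the filter was passed through the controls. Leaving out any control took Lpin1 below the filter, so it was not tested in those fits. The number that fell was 0 without nattokinase replicate 2 or nattokinase replicate 3. It was 1 without control replicate 2 or control replicate 3, counted without Lpin1. At an unadjusted p under 0.05 there were 4 lower and 1 higher, and limma-voom called 4 lower and 0 higher. Over all 10913 tested genes the counts were 2495 in either direction at that unadjusted limma p, and 462 lower and 872 higher in limma-voom. With no filter 0 of the list fell. Exons of Lpcat3 overlap those of Emg1. The most abundant gene of this list, Agpat1, had 43.0 ± 0.62 FPKM with nattokinase and 45.3 ± 2.78 in the controls (limma adjusted p = 0.46).

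Of 10 tested genes of fatty acid uptake and binding 3 fell and 0 rose in limma. The lipoprotein lipase gene Lpl had 8.77 ± 0.17 FPKM with nattokinase and 11.4 ± 0.27 in the controls (log2 fold change -0.34, limma adjusted p = 0.0025). Dbi, the acyl-CoA binding protein gene and the most abundant of that list, had 33.0 ± 0.98 FPKM with nattokinase and 39.5 ± 3.41 in the controls (limma adjusted p = 0.034), a call that ended when any of 5 of the 6 libraries, all but control replicate 1, was left out (adjusted p up to 0.12) and with no filter (adjusted p = 0.18). At an unadjusted p under 0.05 there were 4 lower and 0 higher, and limma-voom called the same numbers. Over all 10913 tested genes the counts were 2495 in either direction at that unadjusted limma p, and 462 lower and 872 higher in limma-voom. The fatty acid translocase gene Cd36 had 0 reads in all libraries.

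Of 22 tested genes of fatty acid oxidation 3 fell and 0 rose in limma, namely Hadh, Echs1 and Acaa2, enzymes of the mitochondrial spiral, with log2 fold changes of -0.23, -0.25 and -0.21 and adjusted p of 0.025, 0.046 and 0.047. The limma adjusted p ran up to 0.095, 0.17 and 0.15 when 1 library was left out, and only leaving out control replicate 1 kept all 3 calls. In numbers, 0 of the list fell without nattokinase replicate 1 or nattokinase replicate 2, or without control replicate 2 or control replicate 3. Without nattokinase replicate 3 the count was 1, a gene other than the 3 named, with no filter it was 0, and without trend and robust prior it was 1. At an unadjusted p under 0.05 there were 5 lower and 1 higher, and limma-voom called 4 lower and 0 higher. Over all 10913 tested genes the counts were 2495 in either direction at that unadjusted limma p, and 462 lower and 872 higher in limma-voom. The electron carrier gene Etfa, the most abundant here, had 49.2 ± 1.86 FPKM with nattokinase and 47.3 ± 2.29 in the controls (limma adjusted p = 0.57). The median log2 fold change of the tested oxidation genes was -0.05.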

How the data were processed

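RNA was sequenced from SVEC4-10 cells, 3 samples labelled as nattokinase-treated for 24 hours and 3 untreated. The submitters' processing notes name without roles the aligner HISAT2 2.1.0, the counter featureCounts 1.6.0, DESeq2 1.22.1, the trimmer Trimmomatic 0.38, and FastQC, CASAVA and MultiQC, and the build GRCh38, a human build, although the identifiers are from mouse. No source used here states strandedness. The authors deposited FPKM for 55536 genes per sample, a unit found from the values: multiplied by merged exon length in GENCODE M21 (GRCm38), 100% of values above 0 were whole multiples of 1 step per library within 0.05. Reads were recovered this way for voom and for depth.

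The 10913 genes that reached 1 FPKM in 3 or more libraries were tested as log2(FPKM + 1) with limma 3.58.1 in R 4.3.3, with trend and robust prior, two-sided, adjusted by Benjamini-Hochberg over all tested genes. Fold is the ratio of mean FPKM, and log2 fold changes, which understate low genes, are on the log2(FPKM + 1) scale. The gene H2-Ke6 stands in its list under its RefSeq synonym. Genes named are all 10 members, up to 4 called genes with the smallest p and the most abundant gene in each other list, and 4 regulators, Srebf1, Srebf2, Insig1 and Nr1h3. Others were named after their values were seen. A called gene of the uptake list is not reported here. The members and lists were chosen with earlier results of these data known. The 95% intervals are limma's and rest on the spread between libraries, whereas the counting errors given in percent cover counting only. Alternatives were limma-voom, median-of-ratios scaling, equal protein-coding totals, no filter or one at 5 FPKM, other pseudocounts, no trend or robust prior, a replicate block and leaving out each library. Replicates differed by more than counting error, with a mean chi-square per gene of 2.56 to 12.2 between libraries of a group.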

Additional observations from a re-analysis of the deposited data

How the results depend on the processing

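Over the 15 alternatives the log2 fold change of each of the 10 genes was negative wherever it could be computed, and the number that fell was between 6 and 8 without 1 library, 4 without the filter on low values and 7 to 10 otherwise. The filter at 5 FPKM removed Acss2 and Elovl6 from the test. Without the filter on low values 109 genes were lower and 221 higher of 24549 tested. Without 1 library the counts ran from 193 to 481 lower and from 330 to 726 higher. The lower count was smallest without nattokinase replicate 2 (198), nattokinase replicate 3 (197), control replicate 2 (193) or control replicate 3 (209). Both counts were largest without control replicate 1 (481 lower and 726 higher), the control that stood apart. Rescaling to equal protein-coding totals gave 497 lower and 478 higher, against 354 lower and 612 higher as deposited. The log2 difference of Acly over Acss2 was 0.08 with 1 FPKM added, against 0.33 without (0.080 and 0.335 to 3 digits). With the replicate block, 8 of the 10 genes fell, Acss2 having a limma adjusted p of 0.078, 0 genes of fatty acid oxidation fell, and 249 genes were lower in all. Deviations from the group mean of same-numbered libraries correlated at -0.089, -0.044 and -0.059, so the numbers were not taken to pair the samples. The added 1 FPKM shrinks the change of low genes such as Acss2, at 1.04 FPKM with nattokinase and 1.57 in the controls. The causes of the other shifts were not tested. Depth limits Acss2 most, with a counting error of 6.71% per library.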
